A study of Mus musculus with 7 samples.

Results

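Pericentral hepatocyte genes were followed in livers of TET1 knockout and wild-type mice on a high-fat diet (HFD). The 10 genes were Axin2, Lgr5, Tbx3, Glul, Oat, Slc1a2, Rhbg, Cyp2e1, Cyp1a2 and Rgn, of 51426 genes in the count tables. They were chosen by name as genes whose expression is known to be highest next to the central vein, not by a threshold on values measured here. Bulk RNA-seq libraries were made from the livers of 3 male wild-type mice (WT) and 4 male TET1 total knockout mice (TET1 KO, genotype TET-1-TKO), both labelled C57BL/6J. The study assigns RNA-seq to its constitutive TET1 null mice, a B6;129S4-Tet1tm1.1Jae/J line with a germline deletion, and not to its mice with floxed TET1 and a β-actin Cre. All mice of both groups received the HFD for 16 weeks from 8 weeks of age. The knockout was of the whole body, so every liver cell type of those mice carried it, and no mice on control diet entered the comparison. The question was whether loss of TET1, an enzyme that oxidizes methylated cytosines in DNA, was accompanied by a different expression of the pericentral program under this diet. In whole tissue, fewer cells of a type and less RNA per cell cannot be told apart.

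Hepatocytes divide their work along the axis from the portal vein to the central vein. Endothelial cells of the central vein release Wnt ligands and R-spondin, which keep β-catenin active in the neighbouring hepatocytes. β-catenin joins TCF/LEF factors on DNA, and their targets there include genes for glutamine synthesis, ammonium transport and oxidation of foreign compounds. Periportal hepatocytes run the urea cycle and gluconeogenesis instead. Glul, which makes glutamine from glutamate and ammonia, is restricted to the few hepatocyte layers around the central vein, whereas Cyp2e1 and Cyp1a2 extend farther out.

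The sequences just upstream of the start sites show where a form of the core letters read by TCF/LEF factors, CTTTGA (or TCAAAG on the other strand), lies near these genes. Other forms of the core were not searched. The 250 bases before the start of 6 of the 10 genes (Axin2, Glul, Oat, Slc1a2, Cyp2e1 and Cyp1a2) were taken from RefSeq on GRCm38.p6. The 6 letters were searched on both strands, and neither spelling can overlap itself or the other. They occurred in 3 of the 6 windows and in 13.8% of the 32851 promoter windows of the same length. Glul is shown as the gene of the innermost layer, and the other sequences are the windows that hold the letters, which are in capitals. Windows are given 5′ to 3′ on the gene's strand and end at the base before the start. They are chr1:153899679-153899928 (plus strand) for Glul, chr2:102706188-102706437 (plus) for Slc1a2, chr7:140763569-140763818 (plus) for Cyp2e1 and chr9:57683656-57683905 (minus) for Cyp1a2.
Glul: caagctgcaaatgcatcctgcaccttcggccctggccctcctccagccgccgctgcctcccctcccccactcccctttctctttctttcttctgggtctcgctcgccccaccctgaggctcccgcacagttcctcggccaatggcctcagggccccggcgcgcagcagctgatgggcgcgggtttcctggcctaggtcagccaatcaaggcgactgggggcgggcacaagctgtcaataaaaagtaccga
Slc1a2: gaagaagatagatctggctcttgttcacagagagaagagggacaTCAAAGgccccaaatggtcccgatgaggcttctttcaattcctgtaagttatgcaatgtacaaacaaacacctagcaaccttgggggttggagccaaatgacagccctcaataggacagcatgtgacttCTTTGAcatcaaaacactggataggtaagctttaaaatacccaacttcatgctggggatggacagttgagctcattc
Cyp2e1: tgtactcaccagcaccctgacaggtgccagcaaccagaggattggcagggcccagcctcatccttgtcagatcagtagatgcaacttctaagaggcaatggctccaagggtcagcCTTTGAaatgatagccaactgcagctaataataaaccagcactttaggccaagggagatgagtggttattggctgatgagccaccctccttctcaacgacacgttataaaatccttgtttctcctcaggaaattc
Cyp1a2: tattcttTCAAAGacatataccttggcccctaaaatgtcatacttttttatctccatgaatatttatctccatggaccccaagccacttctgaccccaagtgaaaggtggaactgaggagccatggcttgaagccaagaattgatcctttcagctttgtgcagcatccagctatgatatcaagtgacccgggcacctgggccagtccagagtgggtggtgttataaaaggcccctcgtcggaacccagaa
The matches began 206 and 77 bases before the start of Slc1a2, 135 bases before that of Cyp2e1 and 243 bases before that of Cyp1a2. The starts used by this table for Slc1a2 and Axin2 lie inside those genes, whose full extents are 102658239 to 102790784 on chromosome 2 and 108917828 to 108950783 on chromosome 11. The windows of Glul, Oat and Axin2 held no match, which says only that these letters are not in those 250 bases. A match is a description of the sequence and not a measured binding site.

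The libraries held 15005277 to 22746138 counts. Tet1 itself was at 1, 4 and 1 counts in the WT livers and at 2, 1, 4 and 1 counts in the TET1 KO livers, so its level could not check the genotype labels at this depth. Hepatocyte markers were abundant in every liver, with a summed level of 68958 to 87696 CPM (counts scaled to library size) in WT and 81060 to 88450 CPM in TET1 KO. Of the 14754 genes tested, 129 (0.874%) were higher and 169 (1.15%) lower in TET1 KO. The threshold was 0.05 on p values from the quasi-likelihood test of edgeR after Benjamini-Hochberg adjustment. Without TET1 KO replicate 4 these counts were 427 and 464, and without WT replicate 2 they were 16 and 22. Scaling by library size only gave 107 higher and 312 lower.

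None of the 10 pericentral genes passed that test, against 2.02% of all genes tested. All 10 passed the filter on low counts, the lowest value being 36 counts of Rhbg in one TET1 KO liver. The gene with the smallest p was Cyp1a2, the only one of the 10 with an unadjusted p under 0.05, a level that 26.3% of all genes reached. DESeq2 also called 0 of the 10 and also gave 1 unadjusted p under 0.05. The log2 fold change of TET1 KO over WT was positive for 7 genes and negative for 3, from -0.38 for Axin2 to 0.64 for Cyp1a2. The median was 0.10, beside 0.01 over all genes. Glul was the single gene whose groups did not overlap, with every TET1 KO liver below every WT liver, an arrangement seen in 10.8% of all genes. The opposite arrangement, seen in 11.7% of all genes, occurred in 0 of the 10, so 1 of the 10 was separated in either direction against 22.5% of all genes.

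**Figure D1:**
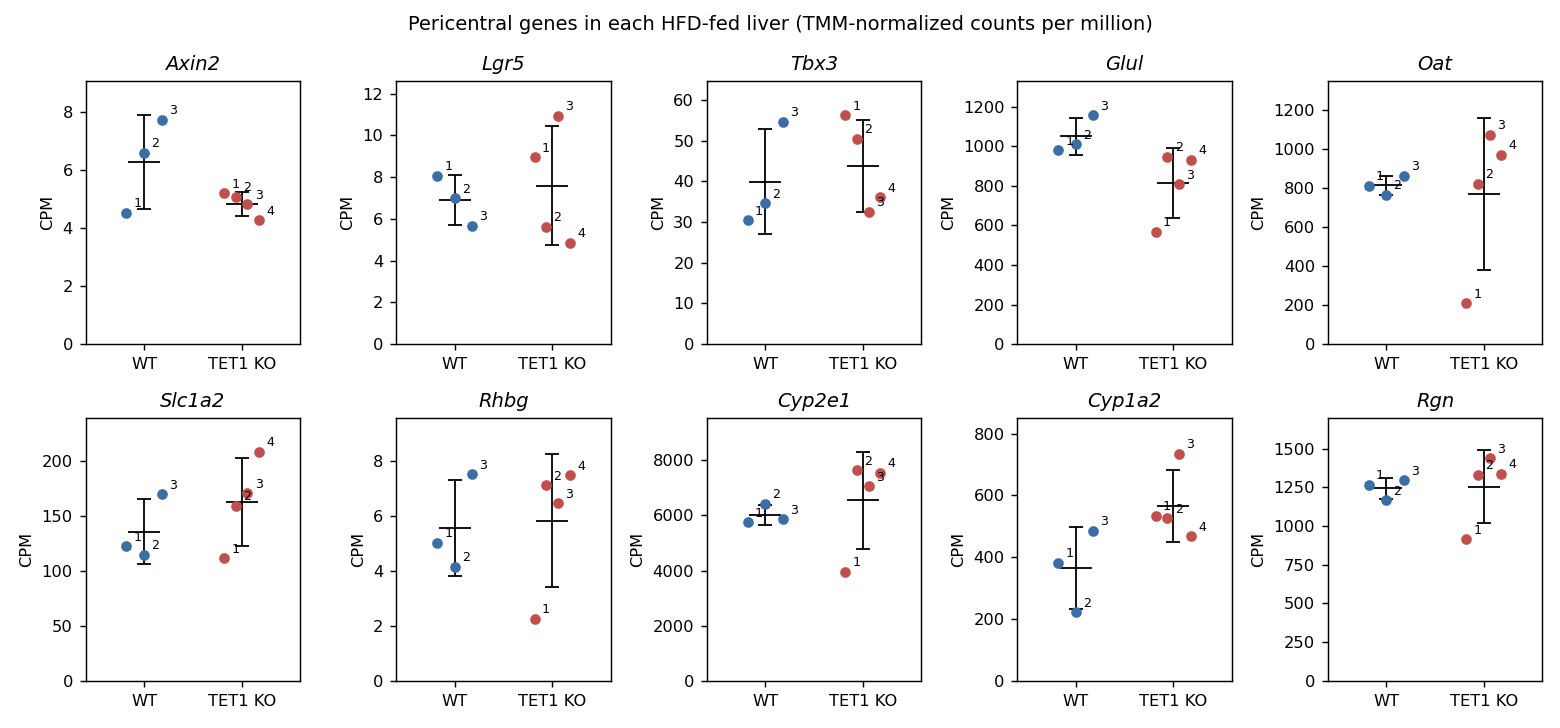
Level of each pericentral gene in each liver, in CPM (counts scaled to library size by TMM) on a vertical axis from 0, with WT livers in blue, TET1 KO livers in red and replicate numbers beside the points. Horizontal bars are group means with SD (n = 3 WT and 4 TET1 KO), and Glul is the gene in which every TET1 KO liver sits below the WT livers.

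Glul, glutamine synthetase, was at 980 CPM, 1011 CPM and 1157 CPM in the WT livers. It was at 569, 948, 809 and 932 CPM in TET1 KO replicates 1 to 4. The highest TET1 KO liver was thus just under the lowest WT liver, and TET1 KO replicate 1 was well below all others. The log2 fold change was -0.37 ± 0.20 (SE), with a 95% interval from -0.81 to 0.08 and an adjusted p of 0.268 by edgeR's quasi-likelihood test. Leaving out TET1 KO replicate 1 brought the value to -0.23. Reads of Glul (chromosome 1, 153899929 to 153909723 on GRCm38.p6) could include those of the microRNA gene Mir8114 within it.

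Glutamine made at the central vein takes up ammonia that the periportal hepatocytes release or leave unused. Gls2, the liver glutaminase of the periportal side, had a log2 fold change of -0.19 (adjusted p = 0.394, edgeR). Cps1, which carries ammonia into the urea cycle, had -0.45 (adjusted p = 0.332, edgeR), which ranged from -0.70 without WT replicate 1 to -0.20 without WT replicate 2. Neither gene separated the groups.

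Oat encodes ornithine aminotransferase, which turns ornithine into a precursor of glutamate beside the glutamine synthetase reaction. Its WT livers were close together at 813, 765 and 864 CPM. The TET1 KO livers were at 210, 823, 1073 and 971 CPM. TET1 KO replicate 1 was far below the rest, and the other TET1 KO livers lay within or above the WT range. The SD was 387 CPM in TET1 KO (n = 4) and 49.6 CPM in WT (n = 3). Oat had a log2 fold change of -0.08, with a 95% interval from -0.99 to 0.82, the widest of the 10 genes, and without TET1 KO replicate 1 its sign turned to 0.23 (adjusted p = 0.395, edgeR).

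Rhbg encodes an ammonium transporter of the Rh glycoprotein family. It was at 5.02 CPM, 4.15 CPM and 7.51 CPM in the WT livers and at 2.25, 7.11, 6.44 and 7.47 CPM in the TET1 KO livers. The low value was again that of TET1 KO replicate 1, with 36 counts against 101 to 161 in the other knockouts, and the groups overlapped. Rhbg had a log2 fold change of 0.08 (95% interval from -0.71 to 0.86), which was 0.34 without that liver and -0.10 without WT replicate 2.

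Slc1a2, the glutamate transporter GLT-1, was at 123, 115 and 170 CPM in the WT livers. In TET1 KO it was at 112, 160, 171 and 209 CPM. TET1 KO replicate 1 was the lowest and TET1 KO replicate 4 the highest of the 7 livers, with the groups overlapping. For Slc1a2 the log2 fold change was 0.26 (95% interval from -0.21 to 0.73, adjusted p = 0.445, edgeR). With single livers left out it ranged from 0.12, without TET1 KO replicate 4, to 0.43, without WT replicate 3. It was 0.15 without WT replicate 2 and 0.40 without TET1 KO replicate 1.

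Among the genes that respond to Wnt signalling directly, Axin2 encodes a scaffold of the complex that degrades β-catenin and so acts as a feedback inhibitor. Its levels were 4.53 CPM, 6.59 CPM and 7.73 CPM in the WT livers. The TET1 KO livers lay between 4.27 and 5.20 CPM, narrower than WT. WT replicate 1 fell inside the range of the knockouts, and the other WT livers were above all of them. Axin2 had the most negative log2 fold change of the 10 genes, -0.38 ± 0.21 (SE), with a 95% interval from -0.84 to 0.08 and an adjusted p of 0.266 by edgeR's quasi-likelihood test. Left-out livers moved it between -0.58, without WT replicate 1, and -0.23, without WT replicate 3.

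Lgr5, the receptor for R-spondins that raises the sensitivity of a cell to Wnt, was at 8.07 CPM, 7.01 CPM and 5.68 CPM in the WT livers. It was at 8.95, 5.64, 10.9 and 4.87 CPM in the TET1 KO livers. Both the highest and the lowest liver were knockouts, and the WT livers lay between them. Lgr5 had a log2 fold change of 0.13 (95% interval from -0.47 to 0.74), and its sign turned when WT replicate 3 or TET1 KO replicate 3 was left out (-0.0073 and -0.11).

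Tbx3, a T-box transcription factor that is a Wnt target in pericentral hepatocytes, was at 30.4, 34.7 and 54.6 CPM in the WT livers. It was at 56.2, 50.4, 32.5 and 36.1 CPM in the TET1 KO livers. Each group had livers near the top and near the bottom of the same range. Tbx3 had a log2 fold change of 0.14 (95% interval from -0.39 to 0.66), which was -0.0068 without TET1 KO replicate 1, which was the highest liver for this gene. Antisense or overlapping genes lie within the extents of Tbx3 (Tbx3os1), Lgr5 (A930009A15Rik) and Slc1a2, and their reads cannot be told apart from these genes unless the counting used strand.

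Cyp2e1, which oxidizes ethanol and other small molecules, was the most abundant of the 10 genes. The WT livers were at 5759, 6419 and 5868 CPM. The TET1 KO livers were at 3953, 7642, 7053 and 7548 CPM. TET1 KO replicate 1 was below all WT livers and the other 3 knockouts were above them, so the groups overlapped only through that liver. For Cyp2e1 the log2 fold change was 0.12 (95% interval from -0.56 to 0.80, adjusted p = 0.821, edgeR), and 0.30 without TET1 KO replicate 1 (adjusted p = 0.461, edgeR). It was lower without TET1 KO replicate 2 (0.026), 3 (0.07) or 4 (0.05).

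Cyp1a2 oxidizes caffeine and aromatic amines and is also a target of the aryl hydrocarbon receptor (AhR). It was at 383, 223 and 486 CPM in the WT livers. In the TET1 KO livers it was at 534, 527, 735 and 468 CPM. WT replicate 2 was the lowest liver and TET1 KO replicate 3 the highest, while WT replicate 3 lay above TET1 KO replicate 4. The log2 fold change was 0.64 ± 0.25 (SE), the largest of the 10, with a 95% interval from 0.08 to 1.20. Its unadjusted p was 0.0297 and its adjusted p 0.149 by edgeR's quasi-likelihood test. The value was 0.38 without WT replicate 2 and 0.88 without WT replicate 3, and the adjusted p ranged from 0.0508 to 0.454 over the alternatives tried.

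Rgn, regucalcin, is a calcium-binding gluconolactonase. It was at 1266, 1167 and 1295 CPM in the WT livers and at 913, 1332, 1439 and 1336 CPM in the TET1 KO livers. The pattern was that of Cyp2e1, with TET1 KO replicate 1 below and the other knockouts above the WT livers. Its log2 fold change of 0.01 (95% interval from -0.42 to 0.45) was the closest to 0 of the 10 genes, 0.14 without that liver and between -0.07 and 0.02 without any other.

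**Figure D2:**
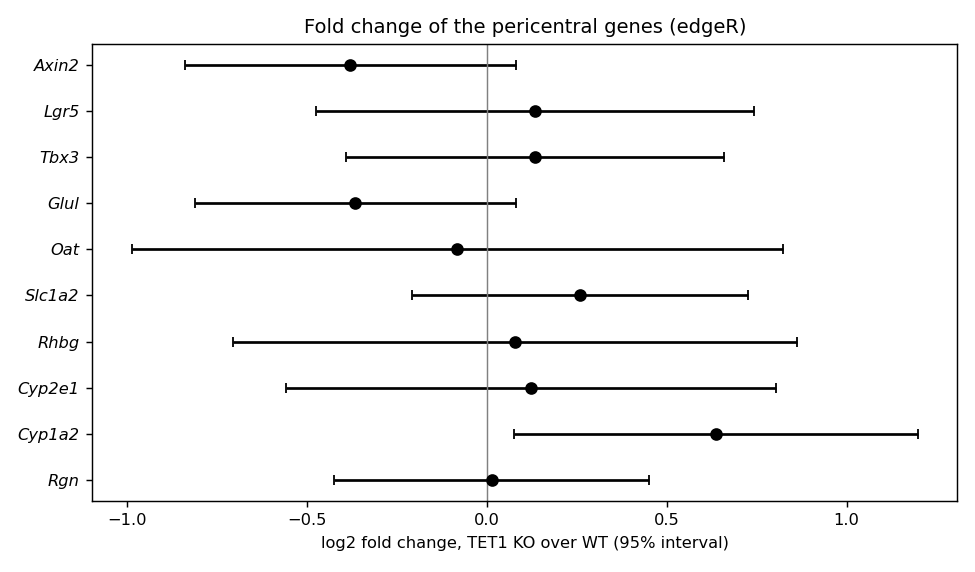
Log2 fold change of TET1 KO over WT for each pericentral gene by edgeR, with the 95% interval as a horizontal bar and a vertical line at 0. The interval of Cyp1a2 alone lies off 0, from 0.08 to 1.20, and its adjusted p was 0.149.

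The order of the levels was compared per length, as CPM per kilobase of exon. In the WT livers Cyp2e1 stood first at 3292 ± 194 CPM per kilobase (SD, n = 3), followed by Rgn at 773 ± 41.8, Oat at 378 ± 23.0, Glul at 315 ± 28.4 and Cyp1a2 at 192 ± 70.0. The other genes were far lower, from Slc1a2 at 10.3 ± 2.27 CPM per kilobase through Tbx3, Rhbg and Axin2 to Lgr5 at 0.674 ± 0.117. The enzymes for glutamine and foreign compounds thus exceeded the Wnt feedback genes by a wide margin. Among neighbours in this order, the WT livers of Slc1a2 and Tbx3 overlapped and all other neighbours were separate. The lengths pool all annotated exons of a gene, 13153 bases for Slc1a2 and 10264 for Lgr5. By WT mean CPM, Lgr5 (6.92) stood above Axin2 (6.28) and Rhbg (5.56), so its last place rests on that length. In the TET1 KO livers Cyp1a2 at 299 ± 61.5 CPM per kilobase (SD, n = 4) stood before Glul at 245 ± 52.6, but these neighbours overlapped. So did Oat and Cyp1a2, Slc1a2 and Tbx3, and Axin2 and Lgr5, and the other places in the order were those of WT.

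One liver, TET1 KO replicate 1, was the lowest of the 7 in 6 of the 10 genes, Glul, Oat, Slc1a2, Rhbg, Cyp2e1 and Rgn, whereas it was the lowest in 25.3% of all genes tested. Over all genes this liver and WT replicate 2 stood apart. TET1 KO replicate 1 was also the highest liver in 25.6% of genes, WT replicate 2 was the lowest in 26.0% and the highest in 25.0%, and each other liver was at either end in 8.15% to 11.7%. Among the 10 genes, WT replicate 2 was the lowest in 1, Cyp1a2, and the highest in 0. Relative to the mean of the other 3 knockouts, TET1 KO replicate 1 held 0.220 times as much Oat, 0.322 times as much Rhbg and 0.533 times as much Cyp2e1. The corresponding ratios were 0.621 for Slc1a2, 0.634 for Glul and 0.667 for Rgn. Cyp1a2 was nearly level at 0.927, and Axin2, Lgr5 and Tbx3 were above 1, at 1.10, 1.25 and 1.42. Against the other knockouts, the genes of glutamine and ammonia handling, with Cyp2e1 and Rgn, were thus low in this liver, and Axin2, Lgr5 and Tbx3 were not. Against the WT mean, Axin2 (0.827 times) was about as low as Slc1a2 (0.821 times), while Lgr5 (1.29) and Tbx3 (1.41) were above 1. The difference between these genes was not tested. The depth of TET1 KO replicate 1 of 16309440 counts and its hepatocyte marker sum of 81060 CPM lay within the range of the other livers, while its macrophage marker sum of 123 CPM was the lowest, and the part of these in the result was not tested. The hepatocyte sum was mostly Alb (48241 CPM). Single hepatocyte markers differed, with this liver the highest for Apoa1 and Hnf4a and the lowest for Apob and Fgb. Without TET1 KO replicate 1, 0 of the 10 genes were called, 2 had an unadjusted p under 0.05, and the negative values were those of Axin2 (-0.41), Glul (-0.23) and Tbx3 (-0.0068).

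**Figure D3:**
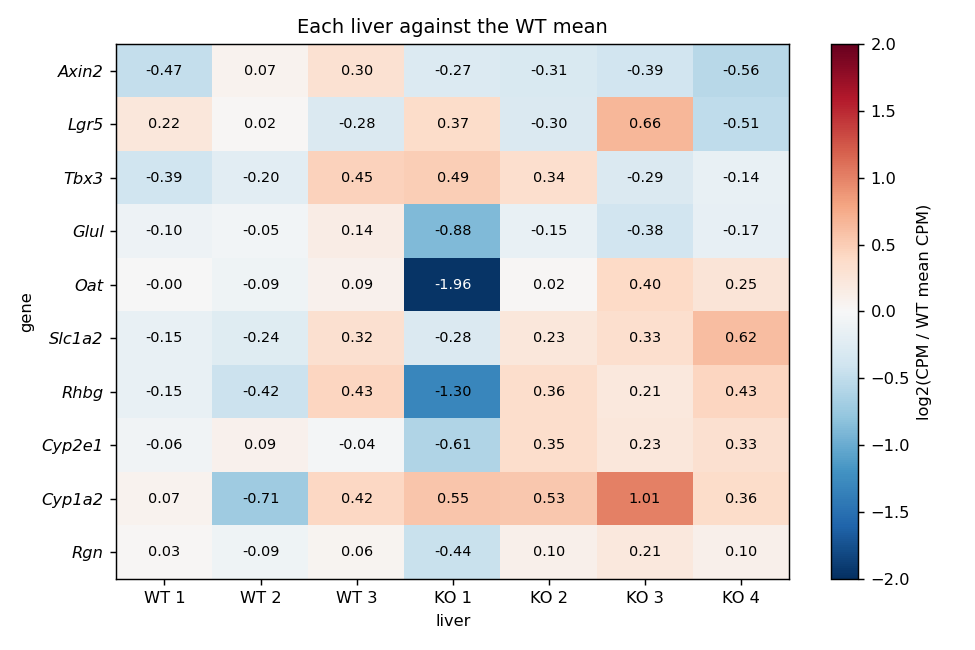
Each cell gives log2 of a liver's CPM over the WT mean for one pericentral gene, on a colour scale from -2 (blue) to 2 (red). The column of TET1 KO replicate 1 is at -1.96 for Oat and -1.30 for Rhbg, while the same liver is at 0.49 for Tbx3 and 0.55 for Cyp1a2.

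A count of the same kind was made for 22 other pericentral genes. TET1 KO replicate 1 was the lowest liver in 59.1% of them, 44.4% of 18 periportal genes, 9.52% of 42 genes of the Wnt pathway and 50.0% of 8 AhR genes, beside 25.3% of all genes. Among cell type markers it was the lowest in 57.1% of 7 macrophage markers, 37.5% of 8 endothelial markers, 28.6% of 7 hepatocyte markers, 25.0% of 8 stellate cell markers, 0 of 5 cholangiocyte markers and 0 of 7 lymphocyte markers. It was also the lowest in 1 of 4 midlobular genes. Low values in this liver were thus not limited to pericentral genes. The mean log2 CPM of the 10 genes minus that of the periportal genes, used to compare livers with each other, was -0.91, -1.40 and -0.90 in WT. It was -1.35, -0.71, -0.77 and -1.20 in TET1 KO. WT replicate 2 and TET1 KO replicate 1 had the lowest balance and the groups overlapped.

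The ligands upstream of these genes did not pass the test. Wnt2 was at 3.36 to 4.53 CPM in WT and 1.88 to 4.45 CPM in TET1 KO, with a log2 fold change of -0.34 (adjusted p = 0.442, edgeR). This was -0.17 without TET1 KO replicate 1 and -0.59 without TET1 KO replicate 3. Wnt9b was near 1 CPM, at 0.953 to 1.72 CPM in WT and 0.557 to 1.00 CPM in TET1 KO with overlapping groups, and had -0.76 (adjusted p = 0.189, edgeR). Rspo3, the R-spondin of the central vein, had -0.03 (adjusted p = 0.939, edgeR), from -0.19 without TET1 KO replicate 1 to 0.11 without TET1 KO replicate 4, beside 0.13 for its receptor Lgr5. Beside these ligands of endothelial cells, 7 of 8 endothelial markers had a negative value, 0 were called, 2 had every TET1 KO liver below every WT liver (10.8% of all genes did), and their summed level was 154 to 157 CPM in WT and 125 to 149 CPM in TET1 KO. The part of endothelial content in the ligand values was not tested.

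Of 48 genes of the Wnt pathway, 42 had enough counts to be tested. One fell, or 2.38% against the 2.02% of all genes called. It was Ccnd1, which encodes cyclin D1 and drives entry into the cell cycle, at 36.5 to 54.4 CPM in WT and 17.7 to 25.9 CPM in TET1 KO. Its log2 fold change was -0.93 (adjusted p = 0.0312, edgeR), and the call was lost without WT replicate 2 or TET1 KO replicate 1, 2 or 3, with an adjusted p of up to 0.149. The next genes by p were Dvl2 (0.72), which passes the Wnt signal inside the cell, the receptor Fzd8 (0.64) and Ctnnb1 (-0.57), which encodes β-catenin, with adjusted p values of 0.0849, 0.0897 and 0.0908 in edgeR. Values of the pathway were evenly split, 21 positive and 21 negative, with a median of 0.00, beside 0.10 for the 10 pericentral genes.

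Of the 22 other pericentral genes, 2 fell (9.09%, against 1.15% of all genes) and 20 did not pass the test. Cyp3a11, a cytochrome of drug metabolism, had a log2 fold change of -1.28 (adjusted p = 0.0437, edgeR) and was at 625 to 1501 CPM in WT and 318 to 538 CPM in TET1 KO. Cldn2, a tight junction protein, had -1.18 (adjusted p = 0.0440, edgeR). Neither call held when WT replicate 2 or TET1 KO replicate 2 or 3 was left out, with an adjusted p of up to 0.206 for Cyp3a11 and 0.228 for Cldn2, and Cyp3a11 was also lost without WT replicate 1 or TET1 KO replicate 1 and Cldn2 without WT replicate 3. The organic cation transporter Slc22a3 (-0.96), the sterol hydroxylase Cyp27a1 (0.44) and the nuclear receptor Nr1i3 (0.56) came next. The median of these genes was -0.36, whereas it was 0.10 over the 10 genes, and this difference between the lists was not tested.

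Of 18 periportal genes, 1 rose (5.56%, against 0.874% of all genes) and 17 did not pass the test, with a median of -0.17. The gene was Cdh1, which encodes E-cadherin, at 2.71 to 6.24 CPM in WT and 12.9 to 20.7 CPM in TET1 KO, with a log2 fold change of 2.01 (adjusted p = 0.00958, edgeR) that was not called without WT replicate 2 (adjusted p = 0.0772, edgeR). Cholangiocytes also express Cdh1, and 5 of 5 cholangiocyte markers tested had a positive value, 0 were called, 3 had every TET1 KO liver above every WT liver (11.7% of all genes did), and their sum was 29.7 to 37.9 CPM in WT and 46.2 to 68.0 CPM in TET1 KO. Krt19, Krt7 and Epcam were highest in TET1 KO replicate 4, at 6.68, 2.69 and 4.87 CPM. In every other liver they were at most 1.69, 1.41 and 0.986 CPM. Sox9 and Spp1, the largest part of the sum, were highest in TET1 KO replicate 2, whereas Cdh1 was highest in TET1 KO replicate 1. A further marker, Cftr, was at 0 to 5 counts in every liver. The part of cholangiocyte content in the Cdh1 value was not tested. Hsd17b13 (-0.64), Pigr (0.57) and Ctsc (-0.58) came next and did not pass.

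Of 4 midlobular genes, 1 rose (25.0%, against 0.874% of all genes), Igfbp2, a binding protein for insulin-like growth factors. It was at 68.5 to 111 CPM in WT and 358 to 476 CPM in TET1 KO, with a log2 fold change of 2.25 (adjusted p = 0.00116, edgeR), and it was called under every alternative tried. The study already reports Igfbp2 among its most altered genes, and this list was chosen with earlier results known. The share of 25.0% is therefore no separate evidence about midlobular genes. The other midlobular genes, Hamp2 (1.19), Cyp8b1 (-0.78) and Hamp (0.63), did not pass. With single livers left out, Hamp2 ranged from 0.82 to 1.80, Cyp8b1 from -1.11 to -0.59 and Hamp from 0.37 to 0.81. Hamp was called only with a replicate block (adjusted p = 0.0466, edgeR).

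**Figure D4:**
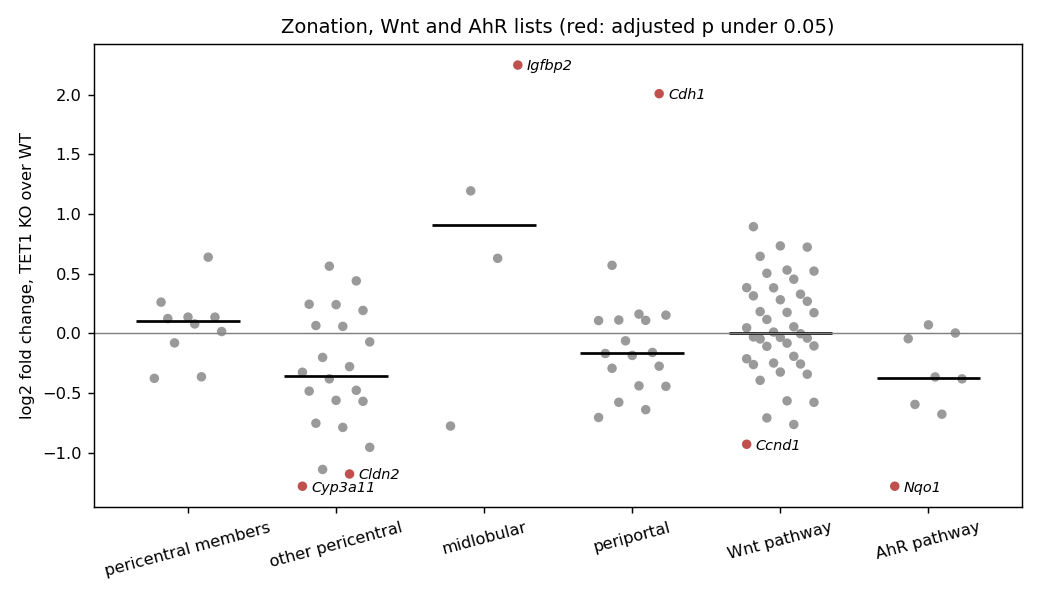
Log2 fold change of TET1 KO over WT for the 10 pericentral genes and for the genes tested in 5 further lists, 1 point per gene, with horizontal bars at the list medians and genes with an adjusted p under 0.05 in red. The 10 pericentral genes lie between -0.38 and 0.64 with none in red.

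Cyp1a2 was also read beside the AhR pathway, which induces it. Ahr itself had a log2 fold change of -0.38 (adjusted p = 0.300, edgeR), which was -0.20 without WT replicate 2 and -0.22 without TET1 KO replicate 1. Its target Cyp1a1, at 0.438 to 1.38 CPM, had -0.60 (adjusted p = 0.309, edgeR), against 0.64 for Cyp1a2. Of 10 genes of the pathway, 8 were tested and 1 fell (12.5%, against 1.15% of all genes), Nqo1, a quinone reductase, at -1.28 (adjusted p = 0.0374, edgeR). That call was lost without WT replicate 1 or 2 or TET1 KO replicate 2 or 3, with an adjusted p of up to 0.149. Of the 8 values, 6 were negative, with a median of -0.38.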

How the data were processed

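Liver RNA of 3 WT and 4 TET1 KO mice on HFD was sequenced from strand-specific libraries. The authors deposited raw counts per gene for each mouse. According to the submitters' processing notes, reads were trimmed with Trimmomatic 0.36, aligned with GSNAP to GRCm38 and counted with featureCounts 1.5.3; the annotation release and the strand setting of the counting are not given in the sources used here. Overlapping genes can therefore share reads.

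The counts of each library (15005277 to 22746138 in all) were joined by gene ID, filtered with filterByExpr (14754 genes left) and normalized by TMM. TET1 KO was compared with WT by the quasi-likelihood test of edgeR 4.0.16 in R 4.3.3, with Benjamini-Hochberg adjustment over all 14754 genes and a threshold of 0.05. Printed CPM are counts scaled to TMM-normalized library sizes. Intervals are 95% intervals of the fit. Groups came from the labels, and replicates are mice; the libraries of each group differed beyond sampling noise, and no batch is given. Alternatives were DESeq2 1.42.0, other scalings and filters, robust dispersions, a replicate block and leaving out each library. The procedures were tested on simulated data. CPM per kilobase used the union of exons of each gene in GENCODE M1 (NCBIM37), from which no coordinates were taken, with Rhbg matched by symbol. Coordinates and promoter windows are RefSeq's on GRCm38.p6, the build of the counts.

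The 10 genes and the lists were chosen with earlier results of these data known. Besides the 10 genes, every gene of the 5 pathway and zone lists that was called is named, with the 3 of smallest p among those not called and genes paired with the 10 by role. Marker lists of 6 cell types were read for cell content; 1 hepatocyte marker symbol was not found in the tables.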

Additional observations from a re-analysis of the deposited data

Results flagged for a closer look

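In the 4 TET1 KO livers, the gap between TET1 KO replicate 1, the lowest, and its nearest neighbour was 0.84 of the whole range for Cyp2e1, above Dixon's 95% critical value for 4 samples. For Ugt1a6a, a glucuronosyltransferase induced by AhR, the same liver was again the lowest, and the gap to its nearest neighbour was 0.931 of the range. The check was made on 36 genes, of which 1.8 would pass it by chance and 2 did. Cyp2e1 was the 1 of the 10 pericentral genes that passed, with 3953 CPM in that liver and 7053 to 7642 CPM in the other knockouts. Ugt1a6a was at 60.0 CPM in that liver and 96.5 to 99.2 CPM in the others.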

How the results depend on the processing

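The 10 pericentral genes gave 0 calls in either direction under every alternative tried and in every fit with a library left out. The number with an unadjusted p under 0.05 ranged from 0 to 3, the highest with library size only, a scaling that shifted the median of all genes to -0.08. Counts over all genes were 107 higher and 312 lower with library size only, 245 higher and 347 lower without the filter on low counts, 693 and 707 with DESeq2, and 841 and 825 at an adjusted p under 0.1. With DESeq2 the Wnt list held 3 calls, the other pericentral list 5 and the periportal list 3; at an adjusted p under 0.1 they held 4, 4 and 3, and robust dispersions left 1 other pericentral call. Same-numbered WT and TET1 KO livers had correlations of 0.209, -0.123 and -0.096, and differently numbered ones from -0.3 to 0.311. With so few livers these values cannot tell whether the numbers pair the samples. With the replicate block there were 670 genes higher and 656 lower, 5 Wnt calls, 3 other pericentral calls and 4 periportal calls. The block also gave 2 midlobular calls, Igfbp2 and Hamp (0.80, adjusted p = 0.0466, edgeR). Cyp3a11 was not called with the block (adjusted p = 0.0680, edgeR). With libraries left out, 16 to 427 genes were higher and 22 to 464 lower, and the lists held 0 to 3 Wnt, 0 to 2 other pericentral, 0 to 2 periportal and 0 to 1 AhR calls. Among single genes, the sign turned with library size only for Rhbg (-0.0096) and Rgn (-0.0804), without the filter for Rgn (-0.0108), and with the block for Rhbg (-0.1634), Rgn (-0.0425), Cyp2e1 (-0.007) and Rspo3 (0.1074). It also turned for Rhbg without WT replicate 2, TET1 KO replicate 2 or 4 (left-out libraries gave -0.1038 to 0.3421), for Rgn without WT replicate 2 or TET1 KO replicate 2, 3 or 4 (-0.0706 to 0.1402), for Tbx3 without WT replicate 1 or TET1 KO replicate 1 (-0.0354 to 0.4068), for Lgr5 without WT replicate 3 or TET1 KO replicate 3 (-0.1117 to 0.3021), for Oat without TET1 KO replicate 1 (-0.2963 to 0.2328), and for Rspo3 without WT replicate 1 or TET1 KO replicate 4 (-0.1909 to 0.1115). The cause was not tested. Of the single-gene values under all alternatives, 446 kept their direction and side of the threshold, 20 lost and 16 gained a call, and 21 turned. With 3 against 4 livers the widest interval among the 10 genes, that of Oat, spanned -0.99 to 0.82, which limits the size of change that could be seen.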
